A study of Mus musculus with 8 samples.

Results

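Acute-phase proteins are secreted defence proteins whose synthesis changes during inflammation. The genes examined were the serum amyloid A genes Saa1, Saa2 and Saa3, the lipocalin gene Lcn2, the haptoglobin gene Hp, the complement genes C3 and Cfb, and the lactoferrin gene Ltf. They are 8 of the 19457 gene rows of the deposited table, were taken by symbol, and all 8 had a row. The choice was made with their HdR against WT values known, so for these genes that comparison is a description and carries no test. Genes outside the set were tested. The lists of related genes used below were also drawn up with earlier results of these data known, so their counts and medians are descriptive.

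RNA was sequenced from primary keratinocytes, the epithelial cells of the epidermis, taken from mouse skin and harvested from culture plates before they reached confluence. There were 4 libraries from wild-type (WT) cells and 4 from cells of HOIL1 ΔRING1 mice, labelled HdR. The HdR allele is a form of HOIL-1L that lacks its RING1 domain. HOIL-1L, the product of Rbck1, is a subunit of LUBAC, the complex that builds linear ubiquitin chains in TNF and NF-κB signalling. The series title places the study in psoriatic inflammation. No treatment is named for either group, and the labels give no strain, age or sex. Nor do they tie the libraries to different animals or cultures. The p-values therefore measure the spread between these libraries, which may be technical.

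Most acute-phase proteins reach the blood from the liver, where IL-6 and IL-1 act through STAT3, NF-κB and C/EBP factors, but epithelia also make several of them. Serum amyloid A proteins bind lipids and retinol and attract leukocytes. Lipocalin-2 binds the iron carriers of bacteria, and lactoferrin binds iron itself. C3 is the protein on which all complement pathways converge, and factor B (Cfb) forms with it the convertase of the alternative pathway. Haptoglobin binds free haemoglobin.

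Sequence just upstream of the start is shown for 4 of the genes, since 3 of them (Saa1, Saa3 and Lcn2) were low in HdR cells and the fourth (C3) was high. These are the 250 bases before the RefSeq start on GRCm38.p6, written 5′ to 3′ on the strand of the gene. Where RefSeq and GENCODE place the start differently, a window can lie within the GENCODE gene span given below: that of Lcn2 does so wholly, and those of Saa2, Saa3 and Ltf in part. Capitals mark a match to the C/EBP motif TTNNGNAAT, the binding pattern of the C/EBP factors, searched on both strands.
Saa1 (chr7:46742981-46743230, minus strand): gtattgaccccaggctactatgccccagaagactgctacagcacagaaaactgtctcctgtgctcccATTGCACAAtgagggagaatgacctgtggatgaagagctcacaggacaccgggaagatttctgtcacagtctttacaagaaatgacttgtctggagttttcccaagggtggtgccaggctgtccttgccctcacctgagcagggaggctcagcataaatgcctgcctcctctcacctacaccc
Saa3 (chr7:46715677-46715926, minus strand): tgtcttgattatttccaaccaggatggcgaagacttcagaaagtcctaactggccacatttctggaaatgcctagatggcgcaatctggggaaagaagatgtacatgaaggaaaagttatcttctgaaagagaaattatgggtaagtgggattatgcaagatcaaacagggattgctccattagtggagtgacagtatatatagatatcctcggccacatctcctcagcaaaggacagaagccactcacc
Lcn2 (chr2:32387740-32387989, minus strand): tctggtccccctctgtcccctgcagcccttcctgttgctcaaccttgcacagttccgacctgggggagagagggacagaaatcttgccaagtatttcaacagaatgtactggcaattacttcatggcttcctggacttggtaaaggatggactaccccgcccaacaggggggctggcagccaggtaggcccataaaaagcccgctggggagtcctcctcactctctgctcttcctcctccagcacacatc
C3 (chr17:57228137-57228386, minus strand): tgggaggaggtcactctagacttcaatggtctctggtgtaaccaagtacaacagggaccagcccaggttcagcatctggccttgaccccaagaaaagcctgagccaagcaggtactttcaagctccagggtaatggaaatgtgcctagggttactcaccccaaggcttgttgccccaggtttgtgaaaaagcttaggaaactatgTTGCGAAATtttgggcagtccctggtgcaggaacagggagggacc

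The upstream windows of 6 members were searched. A C/EBP match was found in 4 of them, against 10.2% of the 32851 windows of this length in the RefSeq table. Saa1 held ATTGCACAA at bases 183 to 175 before the start, and Saa2 held the same 9 letters 1 base further upstream. C3 held TTGCGAAAT at bases 45 to 37, and Ltf held TTGGGCAAT at bases 75 to 67. The STAT motif TTCNNNGAA (7.02% of all windows) and the κB consensus (3.9%) matched in none of the 6. A match describes these letters, not binding, and the genes with a C/EBP match included both C3, which was higher in HdR, and Saa1, which was lower. The Saa1 and Saa2 windows were 94.8% identical, and those of Saa1 and Saa3 were 52.2% identical.

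Values are coverage, the number of aligned bases over a gene, expressed relative to each scaled library total in megabases (per Mb). The WT libraries held 4.78 to 5.43 Gb of aligned bases and the HdR libraries 2.31 to 4.31 Gb, so depth moved with genotype and its part in the results was not tested. Rbck1, which carries the altered allele, was at 84.5, 89.1, 91.5 and 84.9 per Mb in WT and 43.6, 41.1, 45.2 and 44.8 in HdR. Its log2 difference was -0.99 ± 0.047 (SE, limma adjusted p = 7.25e-11), and coverage summed over the gene cannot show the missing part. Of 10 keratinocyte markers all were fitted and their summed level was 50400 to 55200 per Mb in WT and 53000 to 54500 in HdR, nearly all of it Krt5, Krt14 and Krt6a. Single markers moved beside the members: 2 were higher (21.2% over all genes), 3 lower (23.8%) and 5 not called. The differentiation genes Krt10 (208 ± 10.0 to 49.4 ± 3.67 per Mb, SD, n = 4 each, log2 fold change -2.05 ± 0.051, SE, limma adjusted p = 3.37e-14), Krt1 (-1.40 ± 0.076, adjusted p = 2.3e-07) and Lor (-0.75 ± 0.23, adjusted p = 0.0385) were lower. The differentiation gene Ivl leaned the other way and was not called (0.33 ± 0.15, limma adjusted p = 0.1175). Its means were 20.8 ± 5.23 per Mb in WT and 26 ± 2.02 in HdR. Itgb4 (0.43 ± 0.041, adjusted p = 3.35e-07) and Krt5 (0.10 ± 0.036, adjusted p = 0.0247) were higher. The part of differentiation in the results was not tested. Neutrophils, macrophages and hepatocytes also make several of these proteins. The neutrophil gene Elane and the macrophage genes Adgre1 and Lyz2 were at 0 in every library. The highest library reached 0.103 per Mb for Mpo, 0.0184 for Ngp, 0.0608 for Ptprc and 0.12 for Alb. These genes were thus at or near 0, while some other markers of those cells were not. The 9 neutrophil markers with a row summed to 5.66 to 8.06 per Mb in WT and 3.77 to 5.2 in HdR, mostly Itgam. The 8 macrophage markers summed to 48 to 60.8 per Mb in WT and 39.1 to 40.3 in HdR, nearly all of it Cd68. Cd68 was the 1 fitted gene among them and was called lower (-0.50 ± 0.063, SE, limma adjusted p = 8.12e-06). The 7 melanocyte markers summed to 50.3 to 57.9 and 26.2 to 28.6. The part of these cells in the results was not tested.

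The serum amyloid genes and Lcn2 were several-fold lower in HdR keratinocytes, C3 was higher, Cfb and Ltf were near the filter with overlapping values, and Hp was close to undetected. The filter was a mean of at least 1 per Mb over the 8 libraries, which Saa1, Saa3, Lcn2, C3 and Ltf passed. Saa2, Cfb and Hp did not and have no fitted fold. Of the 5 fitted genes, 3 were called lower (limma, adjusted p under 0.05), beside 23.8% of all 11870 genes fitted, and 1 was called higher, beside 21.2%, or 4 in either direction beside 45%. Over all genes that is 2517 higher and 2829 lower, which became 3113 and 2278 with upper-quartile scaling. The same 3 genes were lower with no overlap between libraries, beside 21.3% of genes, and lower by more than 2-fold, beside 1.1%. C3 was the 1 gene that was higher with no overlap, beside 19.8%, and higher by more than 0.5 on the log2 scale, beside 2.89%. Nothing is read from these counts, since the genes were chosen on this contrast. In such bulk RNA, fewer cells making a transcript and less of it per cell cannot be told apart.

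**Figure D1:**
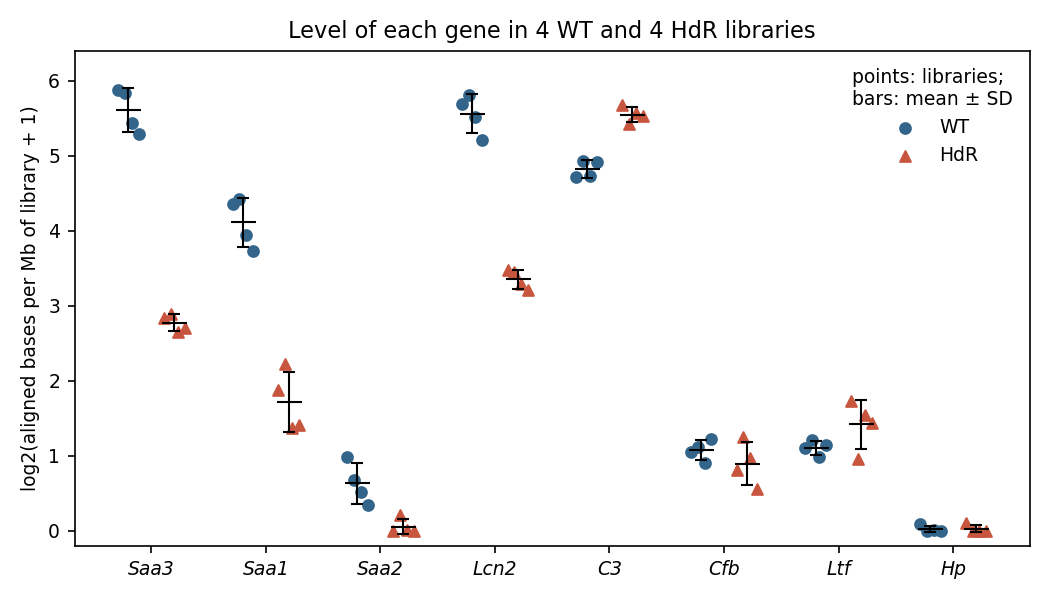
Level of the 8 genes in each library, as log2 of aligned bases per Mb plus 1 (y axis), with circles for the 4 WT libraries and triangles for the 4 HdR libraries. Black bars are the mean ± SD on that scale. The WT and HdR points of Saa3, Saa1, Saa2, Lcn2 and C3 do not overlap, while those of Cfb, Ltf and Hp do.

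Saa3, the serum amyloid gene known for expression outside the liver, was the highest of its family here. It was at 57.7, 56, 42.3 and 38.1 per Mb in WT 1 to WT 4 and at 6.15, 6.44, 5.26 and 5.54 in HdR 1 to HdR 4. The 2 genotypes lay far apart, with the lowest WT library well above the highest HdR library. The means were 48.5 ± 9.83 and 5.85 ± 0.542 (SD, n = 4 each), 8.3-fold apart, and the log2 fold change was -2.84 ± 0.13 (SE). The gene lies at GRCm38 chromosome 7, 46711998 to 46715700, minus strand.

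Saa1 encodes a serum amyloid protein that the liver releases in bulk in the acute phase. Its levels were 19.4, 20.4, 14.4 and 12.2 per Mb in WT and 2.65, 3.65, 1.58 and 1.65 in HdR. The groups did not overlap, and the HdR values rest on 12.7 to 43.8 read-pair equivalents per library (aligned bases divided by 302, the length of a full pair of 151-base reads). The means were 16.6 ± 3.92 and 2.38 ± 0.978 (SD, n = 4 each), with a log2 fold change of -2.39 ± 0.23 (SE). On the scale with 1 added to each value this fold is shrunk, and with 0.1 added it was -2.80.

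Saa2, the near copy of Saa1 on the opposite strand, was at the edge of detection. It was at 0.977, 0.601, 0.434 and 0.264 per Mb in WT and at 0, 0.156, 0.00563 and 0 in HdR. All 4 WT libraries were above all 4 HdR libraries, but these levels come from 37.7 read-pair equivalents over the WT libraries and 1.94 over the HdR libraries. The principal Saa1 and Saa2 transcripts in GENCODE vM21 were 87.3% identical, and their longest shared run was 76 bases, so no full 151-base read from one of them fits the other without a mismatch. How reads that match both were assigned is not given in the sources used here. Their sum was 17.2 ± 4.17 per Mb in the WT and 2.42 ± 1.05 in the HdR libraries (SD, n = 4 each), close to Saa1 alone.

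The 4 Saa genes of the table sit within 42.3 kb of chromosome 7, and Saa4, which is not induced in the acute phase, lies between Saa3 and Saa1. Saa4 was under the filter, at 0.232 ± 0.162 per Mb in the WT libraries and 0.0493 ± 0.0658 in the HdR libraries (SD, n = 4 each). Of 5 other genes fitted within 100 kb of the cluster, 1 was higher (21.2% over all genes), 0 lower (23.8%) and 4 not called. The higher one, the transcription and repair factor gene Gtf2h1, was higher by 0.13 ± 0.036 on the log2 scale (SE, limma adjusted p = 0.00765). Saal1, which begins 1318 bases from Saa3, was at 0.14 ± 0.063 (adjusted p = 0.0809) and passed the threshold with upper-quartile scaling (0.0274) and with library totals (0.0458). Sergef, not called (-0.22 ± 0.097, adjusted p = 0.0787), passed without WT 1 (0.044). The lactate dehydrogenase gene Ldha was at 0.01 ± 0.038 (adjusted p = 0.823) and the lysosome-related organelle gene Hps5 at -0.05 ± 0.069 (adjusted p = 0.544).

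**Figure D2:**
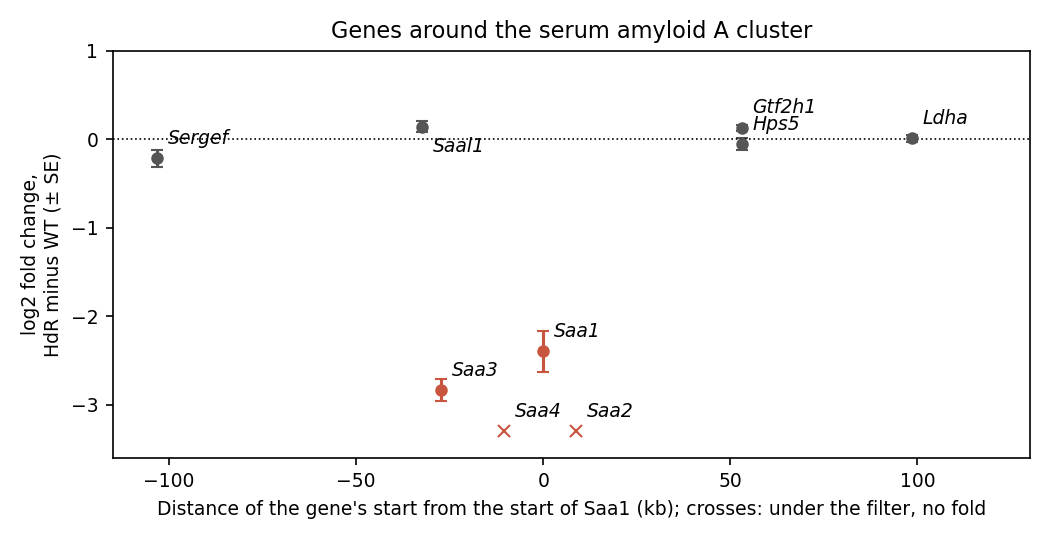
Log2 fold change, HdR minus WT, with its SE (y axis) for genes within about 100 kb of the serum amyloid cluster, by the distance of each gene's start from that of Saa1 in kb (x axis). Saa3 and Saa1 stand at -2.84 and -2.39 while the 5 other fitted genes lie between -0.22 and 0.14, and crosses mark Saa2 and Saa4, which were under the filter and have no fold.

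Lcn2 encodes lipocalin-2, which starves bacteria of iron. It was at 50.8, 55, 44.9 and 36 per Mb in WT and at 10.1, 9.94, 8.82 and 8.22 in HdR. Every WT library was more than 3 times the highest HdR library, with means of 46.7 ± 8.22 and 9.26 ± 0.898 (SD, n = 4 each) and a log2 fold change of -2.20 ± 0.12 (SE). The gene lies at chromosome 2, 32384633 to 32388252, minus strand. Of 8 other genes fitted within 100 kb of it, 5 were called lower (23.8% over all genes), 0 higher (21.2%) and 3 not called. The largest of these folds was in the dynamin gene Dnm1, at -0.81 ± 0.12 (SE, limma adjusted p = 3.48e-05). The fitted gene nearest to Lcn2, 1110008P14Rik, 2695 bases away, was at -0.31 ± 0.066 (adjusted p = 0.00097). Of the lower 5, Slc25a25 lost its call without WT 1, WT 2, HdR 1 or HdR 4, Swi5 without WT 3, WT 4, HdR 1 or HdR 3, and Golga2 without WT 1 (adjusted p 0.0553 to 0.125). With upper-quartile scaling none of these 3 passed (0.0763 to 0.188), while Dnm1 and 1110008P14Rik stayed lower under every alternative run.

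C3 went the other way. It was at 25.2, 29.4, 25.6 and 29.3 per Mb in WT and at 49.9, 41.8, 46.4 and 45.2 in HdR. The groups did not overlap and the spread within each was small beside the gap between them. The means were 27.4 ± 2.3 and 45.9 ± 3.35 (SD, n = 4 each), with a ratio of 1.68 and a log2 fold change of 0.72 ± 0.066 (SE). C3 lies at chromosome 17, 57203970 to 57228136, minus strand. Of the 3 other genes fitted within 100 kb, the receptor-like gene Gpr108 was lower at -0.18 ± 0.047 (SE, limma adjusted p = 0.00456), with WT 1 apart from the other WT libraries, and 2 were not called. One of these, Trip10 (0.12 ± 0.049, limma adjusted p = 0.0624), passed as higher under each of the 3 other scalings (0.0162 to 0.0489) and without WT 3 (0.0369) or HdR 4 (0.0451).

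**Figure D3:**
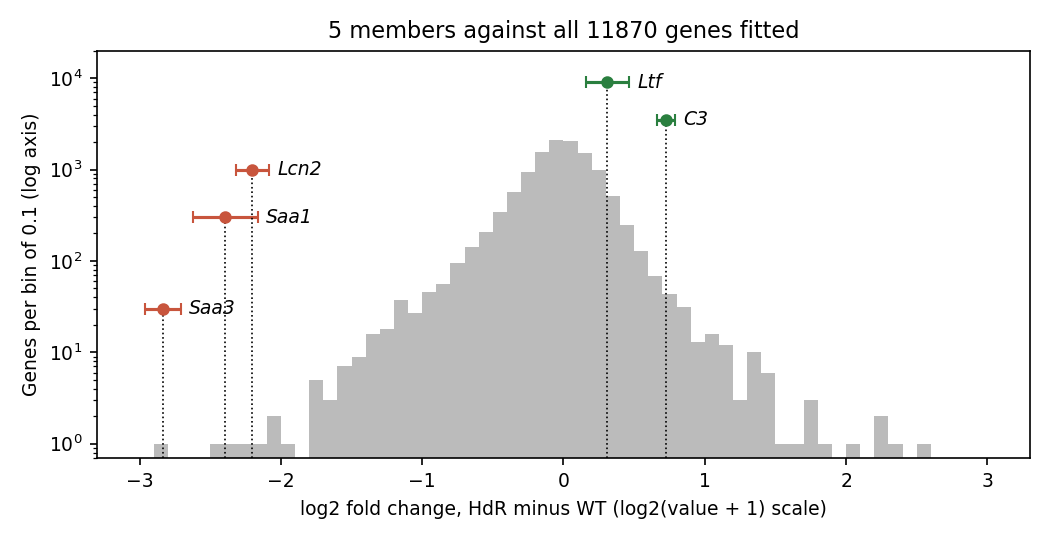
Histogram of the log2 fold change, HdR minus WT, of all 11870 genes fitted (x axis, bins of 0.1) with the number of genes per bin on a log axis. Points with SE bars mark the 5 fitted members at an arbitrary height: Saa3, Saa1 and Lcn2 at -2.84 to -2.20, Ltf at 0.31 and C3 at 0.72.

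Cfb, the partner of C3 in the alternative pathway, had values of 1.07, 1.18, 0.87 and 1.32 per Mb in WT and 0.745, 1.37, 0.953 and 0.47 in HdR. The highest library of all was HdR 2 and the lowest HdR 4, so the groups overlapped fully, and the means were 1.11 ± 0.191 and 0.884 ± 0.378 (SD, n = 4 each). Cfb lies at chromosome 17, 34856374 to 34862518, minus strand, 86 bases from the complement gene C2, which was at 0.353 ± 0.178 and 0.121 ± 0.0399. Of 9 genes fitted near Cfb, 2 were lower (23.8% over all genes), 0 higher (21.2%) and 7 were not called. Among the 7, Stk19 (0.19 ± 0.080, limma adjusted p = 0.058) passed as higher with upper-quartile scaling (0.027), with library totals (0.0318) and without WT 3 (0.0252) or WT 4 (0.0369).

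Ltf was at 1.14, 1.31, 0.979 and 1.21 per Mb in WT and 2.3, 0.941, 1.93 and 1.71 in HdR. HdR 1, HdR 3 and HdR 4 were above all WT libraries, but HdR 2 was below all of them. Its log2 fold change was 0.31 ± 0.15 (SE), and 0.46 without HdR 2. Read-pair equivalents were 17.1 to 20.8 per WT library and 11.3 to 33.2 per HdR library. Hp gave 1 read-pair equivalent in WT 1 and 1 in HdR 1, a trace of 0.0364 in WT 3, and 0 in the other 5 libraries, too little to compare.

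Levels of different genes can be set side by side only per length. Divided by the length in kb of the principal transcript in GENCODE vM21, WT levels ran from highest to lowest in the order Saa3 (87.4 ± 17.7 per Mb per kb), Lcn2 (51 ± 8.99), Saa1 (27.3 ± 6.43), C3 (5.33 ± 0.449), Saa2 (0.873 ± 0.467), Ltf (0.422 ± 0.0502), Cfb (0.406 ± 0.0698) and Hp (0.0117 ± 0.0224, SD, n = 4 throughout). The libraries of neighbours in this order did not overlap from Saa3 down to Saa2, whereas Saa2, Ltf and Cfb overlapped. In HdR the top of the order closed up. Saa3 (10.5 ± 0.977), Lcn2 (10.1 ± 0.981) and C3 (8.93 ± 0.653) each overlapped with the next, followed by Saa1 at 3.92 ± 1.61. Among the fitted genes with a length, Saa3 was at the 92.6 percentile in WT and the 53.1 percentile in HdR, Lcn2 at 87 and 51.9, and C3 at 34.8 and 48.7. The order in HdR depends on the length used. With all annotated exons, which include retained introns, C3 came first at 8.92 per Mb per kb, before Lcn2 (3.53) and Saa3 (2.24), while in WT the first 4 genes kept the order above.

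The genes that were low in HdR also differed between libraries of 1 genotype. In WT, the levels of Saa1, Saa2, Saa3 and Lcn2 in WT 1 and WT 2 were all above those in WT 3, and WT 4 was the lowest for each. In HdR, Saa1, Saa3 and Lcn2 were higher in HdR 1 and HdR 2 than in HdR 3 and HdR 4. The SD of log2 levels over the WT libraries was 0.331 for Saa1, 0.292 for Saa3 and 0.26 for Lcn2, against a median of 0.0872 over all fitted genes, which put them at the 98.2, 97.2 and 95.7 percentiles of spread. C3 was at the 68.5 percentile. In HdR the spread of Saa1 (SD 0.406) and Ltf (0.329) was at the 99.4 and 98.4 percentiles, that of Saa3 and Lcn2 at 68.9 and 73.8, and the median gene had an SD of 0.08. Saa1 and Ltf were also the lowest of the fitted members in HdR, and the part of a low level in their spread was not tested. On the log2 scale, measured from the average of WT 1, WT 2 and WT 3 towards the average of HdR, WT 4 lay 0.145 of the way for Saa3, 0.2 for Lcn2 and 0.204 for Saa1. Leaving out any 1 library kept Saa3 between -2.94 and -2.75, Lcn2 between -2.32 and -2.12 and Saa1 between -2.56 and -2.28.

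**Figure D4:**
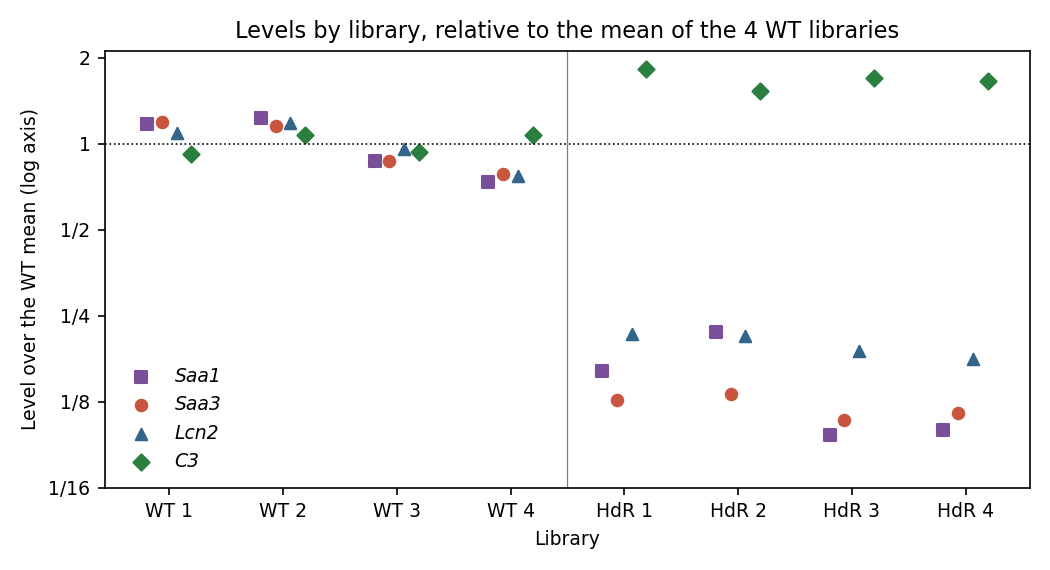
Level of Saa1, Saa3, Lcn2 and C3 in each library, divided by the mean of the 4 WT libraries (y axis, log axis, dotted line at 1). Within WT the 3 genes that were low in HdR are highest in WT 1 and WT 2 and lowest in WT 4, and in all 4 HdR libraries they lie well below the WT libraries while C3 lies above.

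The genes that act upstream went both ways. Of 22 fitted transcription factors and feedback genes of the acute-phase response, 10 were called higher, 8 lower and 4 not called. Their median log2 fold change was 0.0707, beside -0.0103 over all genes fitted, of which 21.2% were called higher and 23.8% lower. The 4 with the smallest p were Tnfaip3, the gene of the NF-κB inhibitor A20 (1.77 ± 0.083, SE, limma adjusted p = 1.81e-08), Cebpb (-0.63 ± 0.045, adjusted p = 1.35e-08), Cebpg (-0.57 ± 0.049, adjusted p = 7.93e-08) and the IκBα gene Nfkbia (0.48 ± 0.042, adjusted p = 9.65e-08). C/EBPβ is a main activator of acute-phase genes. Cebpb was at 371, 344, 370 and 330 per Mb in WT and 227, 245, 220 and 220 in HdR, without overlap. Named after their values were seen, Cebpa was also lower (-0.44 ± 0.088, adjusted p = 0.00298) and Cebpd higher (0.35 ± 0.047, adjusted p = 1.23e-05). Nfkbiz, whose product IκBζ is needed for Lcn2 induction in several cell types, was higher (0.59 ± 0.053, adjusted p = 2.64e-07), and Stat3 was slightly lower (-0.15 ± 0.039, adjusted p = 0.00407).

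**Figure D5:**
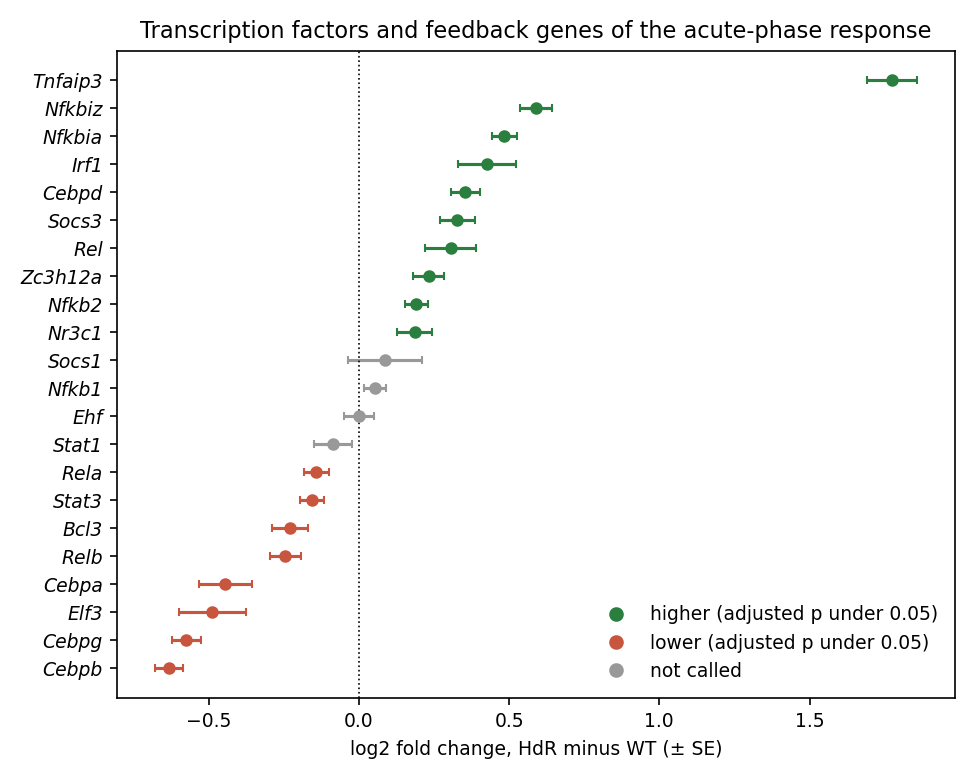
Log2 fold change, HdR minus WT, with its SE (x axis) for the 22 fitted transcription factors and feedback genes, sorted by value. Colours give the limma call at adjusted p under 0.05. Tnfaip3 stands at 1.77, the 3 lower C/EBP genes at -0.63 to -0.44, and Cebpd at 0.35.

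Of 23 fitted cytokine and receptor genes of the response, 5 were called higher, 7 lower and 11 not called (median -0.00912). Over all genes fitted, 21.2% were called higher and 23.8% lower, so such a division is not particular to these genes. Tnf rose (1.01 ± 0.10, SE, limma adjusted p = 4.91e-07), as did Lif, an IL-6 family cytokine gene (0.41 ± 0.060, adjusted p = 3.19e-05). The receptor genes Il17rc (-0.49 ± 0.038, adjusted p = 3.34e-08) and Tnfrsf1a (-0.39 ± 0.041, adjusted p = 1.03e-06) fell. Il6 was at 0 in all WT libraries and averaged 0.0193 per Mb in HdR, and Osm was at 0 in all 8.

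Of 19 other complement components with a row, 3 passed the filter. C1s1, which encodes the C1s protease of the classical pathway, rose (0.46 ± 0.065, SE, limma adjusted p = 2.14e-05), its partner C1ra fell (-0.40 ± 0.087, adjusted p = 0.0013), and Masp2 was not called (0.01 ± 0.12, adjusted p = 0.951). The factor D gene Cfd, which the alternative pathway needs to cleave factor B, was under the filter, at 0.0381 ± 0.0404 per Mb in the WT libraries and 0.0484 ± 0.0461 in the HdR libraries (SD, n = 4 each). Of 18 regulators and receptors with a row, 6 were fitted, with 1 higher (21.2% over all genes), 3 lower (23.8%) and 2 not called. Those lower were Clu, the gene of the complement inhibitor clusterin (-1.11 ± 0.097, adjusted p = 1.1e-07), Cr1l, the gene of the rodent C3 regulator Crry (-0.44 ± 0.060, adjusted p = 1.98e-05), and Itgam, a chain of the receptor for cleaved C3 (-0.46 ± 0.12, adjusted p = 0.00602). Cd55, whose product disassembles C3 convertases, was called higher (0.17 ± 0.057, adjusted p = 0.0255), but not without WT 1, WT 3, HdR 1 or HdR 4 (adjusted p 0.0685 to 0.0861), each of which leaves 0 higher.

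Of 25 other acute-phase genes with a row, not all of them for plasma proteins, 7 were fitted. Of these, 3 were higher (21.2% over all genes), 3 lower (23.8%) and 1 not called (median -0.0368). Orm1, the gene of α1-acid glycoprotein, fell from 30.1 ± 1.58 to 14 ± 0.778 per Mb (SD, n = 4 each, log2 fold change -1.05 ± 0.065, SE, limma adjusted p = 1.87e-09). Serpina3g (0.68 ± 0.12, adjusted p = 0.000158) and the iron reductase gene Steap4 (0.27 ± 0.047, adjusted p = 0.000188) rose.

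Among 10 fitted receptors and iron-handling partners of these proteins, 2 were higher (21.2% over all genes), 1 lower (23.8%) and 7 not called (median 0.0272). Tfrc, the transferrin receptor gene, rose from 89.6 ± 8.43 to 149 ± 4.04 per Mb (SD, n = 4 each, log2 fold change 0.74 ± 0.055, SE, limma adjusted p = 4.05e-08). Mmp9, whose product lipocalin-2 can bind, rose by 1.08 ± 0.12 (adjusted p = 2.58e-06), and the scavenger receptor gene Lrp1 fell (-0.36 ± 0.038, adjusted p = 1.19e-06). The ferritin gene Fth1 was not called (-0.11 ± 0.049, adjusted p = 0.0875) but was without WT 4 (0.0479) or HdR 2 (0.0186), which brings the count of lower genes to 2. The lipocalin-2 receptor gene Slc22a17 was under the filter, at 0.682 ± 0.391 and 0.494 ± 0.168 per Mb.

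Among the genes of other innate proteins that epithelia secrete, 8 of 12 fitted were lower, 2 higher and 2 not called. Over all genes 23.8% were lower and 21.2% higher. The median was -0.812, beside -0.0103 over all genes. This list too was drawn up with earlier results of these data known, so these figures describe it and are no independent test. The antimicrobial genes Wfdc12 (-1.26 ± 0.16, SE, limma adjusted p = 6.11e-06) and Defb4 (-1.12 ± 0.19, adjusted p = 0.00035) and the chitinase-like gene Chil1 (-0.83 ± 0.14, adjusted p = 0.000127) fell. Wfdc2 rose (1.04 ± 0.12, adjusted p = 1.97e-06). S100a8, named after its values were seen, was at 1087, 973, 1103 and 806 per Mb in WT and 513, 528, 400 and 518 in HdR (-1.01 ± 0.14, limma adjusted p = 0.00121). As for the serum amyloid genes and Lcn2, WT 4 was the lowest WT library for Wfdc12, Defb4, Chil1 and S100a8, though WT 3 was here the highest.

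The genes whose pattern was most like that of the 5 fitted members, by Pearson r over the 8 libraries with the mean of their standardised log2 levels, were Zfp598 (r = 0.974), Ipmk (0.967), Zfp654 (0.962), Soga1 (0.96) and Acvr2a (0.96). The score averages genes that were lower with genes that were higher, without turning their signs. Their genotype differences therefore partly cancel in it, and it follows no single member. After each genotype's mean was subtracted, the closest were Tmem167b (0.974), Rab28 (0.968), Mfsd14b (0.956), Cldn12 (0.955) and Ripk4 (0.944). Both lists hold the highest r of all other fitted genes over only 8 libraries. Such a search can return high r for unrelated genes, and no test was made. The same measure for single members was added after the data were seen. Saa3 was closest to Stk40 (0.998), Lars (0.998) and Aldh1b1 (0.997), and Lcn2 to Aldh1b1 (0.999), Cds1 (0.996) and Stk40 (0.996). C3 was closest to Ndc1, C1qtnf1 and Rrn3 (0.992 each).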

How the data were processed

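The 8 genes and the lists of related genes were chosen with earlier results of these data known. Total RNA was extracted with the RNeasy mini kit and NEBNext Ultra II libraries were sequenced on a NovaSeq instrument, per the labels' protocols. The submitters' processing notes name GRCm38. The aligner, counting tool, annotation and strand setting are not given in the sources used here. The authors deposited 1 table of signal, that is, coverage: whole numbers that add up the bases aligned to each gene in each library, with no scaling. The unit was inferred from the values (302 was the commonest above 0). Since they are not read counts, no count test, count interval or detection floor was used.

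Each library was scaled with trimmed-mean (TMM) factors, with 30% of ratios and 5% of levels trimmed from either tail. Genes with a mean of at least 1 per Mb over the 8 libraries were fitted (11870 of 19457) as log2(value + 1) with limma 3.58.1 (lmFit, eBayes with trend and robust variance) in R 4.3.3, with genotype as the only factor. Fold changes are on that scale, which understates those of low genes. Two-sided p-values were adjusted over all fitted genes by the Benjamini-Hochberg method and called under 0.05. Named genes are the 8 members, Rbck1, the up to 4 genes of each list with the smallest p, genes within 100 kb of a member, and the 5 most alike by each measure. Others are marked in the text, and 1 gene that the rule names is not reported here. By symbol, 19163 genes matched GENCODE vM21 (GRCm38), the source of positions and lengths. Upstream sequences are from RefSeq (GRCm38.p6), which held 6 of the 8 genes, aligned with Biopython 1.88. On simulated data for this comparison (11818 genes), the fit recovered 87% of the 1.5-fold changes and 98% of the 2-fold changes. Alternatives changed 1 choice at a time: scaling (median of ratios, upper quartile, library totals), filter (none, or at least 5 per Mb in 4 libraries), pseudocount (0.1 or 5), the replicate number as a block, and each library left out. Figures were drawn with matplotlib 3.10.9.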

Additional observations from a re-analysis of the deposited data

Results flagged for a closer look

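Within 1 genotype, a single library stood far from the other 3 (Dixon's test for 4 values) in 8 of 154 groups examined over 77 genes, where chance flags about 1 in 20. Of these, 3 were members at the edge of detection: Saa2 in HdR 2 (0.156 per Mb, the next at 0.00563), Hp in WT 1 (0.0608) and Hp in HdR 1 (0.0694). The other 5 were neighbours of members: Naif1 was low in WT 3 (7.87), Dhx38 high in WT 3 (80.1), Gpr108 high in WT 1 (60.8), 1110038B12Rik low in WT 2 (24.3) and Zbtb12 high in HdR 3 (1.68 per Mb).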

How the results depend on the processing

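Under the 3 other scalings, the filters, the replicate block and each left-out library, the log2 fold changes of Saa1, Saa3, Lcn2, C3 and Ltf (Ltf was not fitted under the stricter filter) moved by less than the spread between libraries and none changed sign. With a pseudocount of 0.1 Saa1 was at -2.80, and with 5 Saa1 was at -1.54, Saa3 at -2.29 and Lcn2 at -1.85, by construction of the scale. The left-out libraries gave 0.68 to 0.77 for C3 and 0.21 to 0.46 for Ltf. The members called lower numbered 3, or 4 with no filter, which adds Saa2. Members called higher were 1, or 2 without HdR 2, which adds Ltf. In the main fit 23.8% of all genes were called lower and 21.2% higher. Nothing is read from these member counts, since the members were chosen on this contrast. Over all genes, 2517 were higher and 2829 lower, against 3113 and 2278 with upper-quartile scaling, so the balance of higher and lower calls depends on scaling. Leaving out libraries gave 2145 to 2477 higher and 2416 to 2812 lower. With the replicate number as a block there were 2236 higher and 2519 lower, and members stayed at 1 and 3. Same-numbered libraries did not deviate together over the fitted genes (r of their deviations 0.0277, -0.068, -0.222 and 0.0203). This cannot settle whether the numbers mark pairs, since a shared effect may be small or touch few genes. Some list counts moved by over 1.5 times. With no filter, other complement components had 2 higher and 2 lower, and regulators 0 higher. Receptors and iron-handling partners had 4 higher with upper-quartile scaling and 1 with the stricter filter, and other innate genes had 1 higher and 5 lower with that filter, which fits fewer genes. Over the 4 HdR libraries, Saa2 and Hp rest on 1.94 and 1 read-pair equivalents, Cfb on 43.1, Ltf on 82.5 and Saa1 on 115, and no alternative varied depth.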

Other observations

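The remaining marker lists gave the following summed levels per Mb. Langerhans and T cell markers (7 of 9 with a row) summed to 65.4 to 77.4 in WT and 92.1 to 105 in HdR, nearly all of it Epcam, the 1 fitted gene, which was higher. Cd207 was at 0 in all 8 libraries, and Cd74, H2-Aa, Cd3e and Cd3g averaged at most 0.14 per Mb in either genotype. H2-Ab1 averaged 0.429 per Mb in WT and 0.485 in HdR. Sebocyte markers (5 of 6) summed to 671 to 760 and 900 to 987, nearly all of it the lipid synthesis genes Fasn and Scd1, which were the 2 of 3 fitted genes called higher. Mc5r averaged 0.0143 and 0.00667 per Mb, and Elovl3 0.089 and 0.0184. Endothelial markers (5 of 6) summed to 5.09 to 6.49 and 7.04 to 8.52, fibroblast markers (7 of 8) to 2.3 to 4.39 and 2.47 to 6.29, adipocyte markers (6 of 6) to 0.0379 to 0.502 and 0.0722 to 0.658, and hepatocyte markers (5 of 7) to 0 to 0.106 and 0 to 0.12. Saa2 made up 4.79, 2.87, 2.92 and 2.12% of the coverage of Saa1 and Saa2 together in WT 1 to WT 4, and 0, 4.09, 0.355 and 0% in HdR 1 to HdR 4.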
